A study of Mus musculus with 2 samples.

Results

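Genes that make and use glutathione, genes of the thioredoxin and peroxiredoxin system and genes under the transcription factor NRF2 were followed in tumour epithelial cells of mouse skin. The members were every gene of the array's annotation whose symbol begins with Gsta, Gstm, Gsto, Gstt, Gstp, Gstk, Mgst, Gpx or Prdx followed by a number, plus 20 named redox genes. Only probe sets assigned to exactly 1 gene were used. This gave 52 members among 18194 genes, 33 from the families and 19 of the 20 named genes, while G6pdx, the other named gene, was not analysed here, nor were Prdx1 and Prdx6.

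Each of the 2 arrays held CD34-positive epithelial cells sorted from skin tumours of 1 genotype, with no replicate, so there is no test between genotypes and every value below is a single measurement. One genotype was wild type, and the other was K14CreER:Rosa-VEGF-164, in which a Cre recombinase driven by the promoter of keratin 14, a gene of basal epidermal cells, is meant to switch on a VEGF-164 transgene. Both groups had received the carcinogen DMBA at postnatal days 23, 25 and 27, then the tumour promoter TPA over several weeks, and DMBA again at 7 weeks. Cells had been stained for CD34, α6-integrin and Epcam, and for CD45, CD31 and CD140a in a single colour. The labels do not say how many tumours or animals went into a sample, nor when the recombinase was activated.

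Glutathione is a small peptide thiol that is made in successive ligation steps, is oxidised when peroxidases use it, and is returned to its reduced form with NADPH. Glutathione transferases attach it to reactive compounds, among them metabolites of polycyclic hydrocarbons such as DMBA, while thioredoxin and peroxiredoxins form a parallel thiol system against peroxides. NRF2, the product of Nfe2l2, is kept low by the adaptor KEAP1 until electrophiles modify KEAP1, and then binds antioxidant response elements in many of these genes.

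The values are MAS5 signals, a summary of each probe set made separately on each array. An array's background was the 90th percentile of the signals of 80 probe sets for olfactory and vomeronasal receptor genes, which was 19.8 for wild type and 11.3 for the array labelled VEGF, and signals under it were raised to it. Every ratio divides the signal of the array labelled VEGF by that of wild type. Where only 1 array was above background the ratio is a bound, written "at least", and no ratio is given where that signal did not also exceed the background of the other array. The only error to hand is how far probe sets of one gene disagree. Over 4887 genes the SD of a log2 ratio from a single probe set was 0.50 at low, 0.42 at middle and 0.32 at high signal, and the spread between animals is not part of it. Vegfa, the gene gained, had a signal of 804 in wild type and 397 on the other array (log2 ratio -1.02). The lower value lies on the array labelled VEGF, so the directions below rest on that label. Whether its probe sets read the transgene is not known here, so the value does not check the label either way. Cd34, Itga6 and Epcam, stained in the sort, were above background on both arrays, and so were 7 of 7 markers of basal keratinocytes. Of the erythroid markers, 0 of 3 were above background on either array. Ptprc, which encodes CD45, was below background in wild type and at 17.3 on the other array. Immune markers above background numbered 6 of 12 in wild type and 5 of 12 on the other array, and endothelial markers 3 of 7 and 6 of 7. In these bulk samples, fewer cells of a type and less RNA per cell cannot be told apart.

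Most antioxidant genes were within 2-fold on the 2 arrays, and the array labelled VEGF had the higher signal for those further apart. Of the 10 members whose ratio was over 2 times the SD between probe sets, Gstm1, Gstm2 and Gstm5 were lower and the other 7 were higher. Gsta3, among the 7, is a bound. The share of all genes past that mark was not computed, so these counts single out nothing about the members. A ratio or bound was obtained for 46 of the 52 members, 3 of them bounds. Of the 46, 5 (10.9%) were at least 2-fold higher, namely Gsta3, Prdx4, Gpx2, Gpx8 and Gsta2, against 3.87% of the 12199 genes with a ratio or bound. None of the 46 was at least 2-fold lower, against 8.53% of those genes. This share of all genes was 5.12% with the same floor on both arrays, 4.73% after quantile and 4.51% after loess normalization. It was 0.81% when 50 was added to signals without a floor. No member was 2-fold lower in those settings either. With no floor the share was 15.2%, and with the median over probe sets 9.55%. The size of the contrast with the members thus depended on processing. The median log2 ratio was 0.19 for the members, with quartiles of -0.18 and 0.57, and -0.04 for all genes. Gsta3, Gsto2 and Gstt2 entered only through the array labelled VEGF, where they are high. Of the 43 members above background on both arrays 4 (9.30%) were at least 2-fold higher, and the median of the 43 was 0.08. The 12199 genes still include 965 bounds, so their 3.87% and -0.04 are not matching values for the 43. For 23 of the 46 members the ratio was smaller than the SD between probe sets at its signal. The share of higher genes among all genes at least 2-fold apart depended on scaling, with 31.2% as deposited, 51.1% after quantile and 52.8% after loess normalization. The members stood at 6 higher and 0 lower under both of those normalizations, and their median exceeded that of all genes by 0.23 as deposited, 0.11 after quantile, 0.12 after loess and 0.07 with an offset of 50 in place of the background floor.

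**Figure D1:**
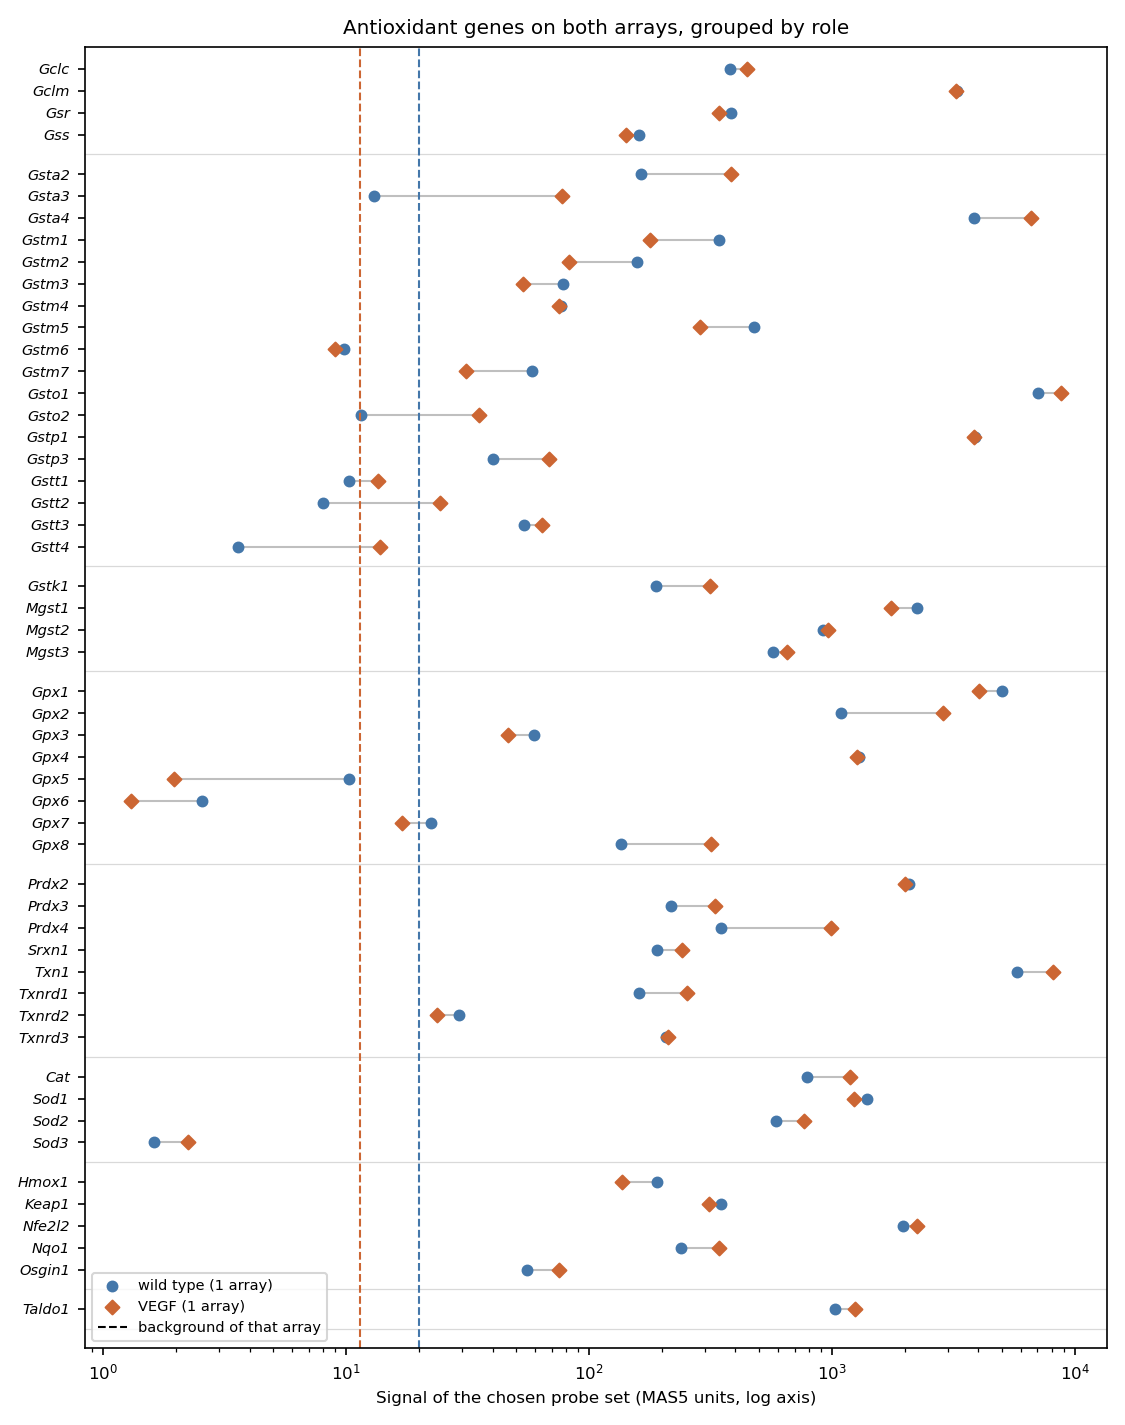
Signal of the chosen probe set of each of the 52 members (log axis, MAS5 units) on the wild-type array (circles) and the array labelled VEGF (diamonds), grouped by role, with each array's background as a dashed line. Gsta3, Gpx2, Gpx8 and Prdx4 have wide gaps to the right, and the Gstm genes lie to the left on the array labelled VEGF, Gstm4 by so little that its direction turned under other scalings.

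**Figure D2:**
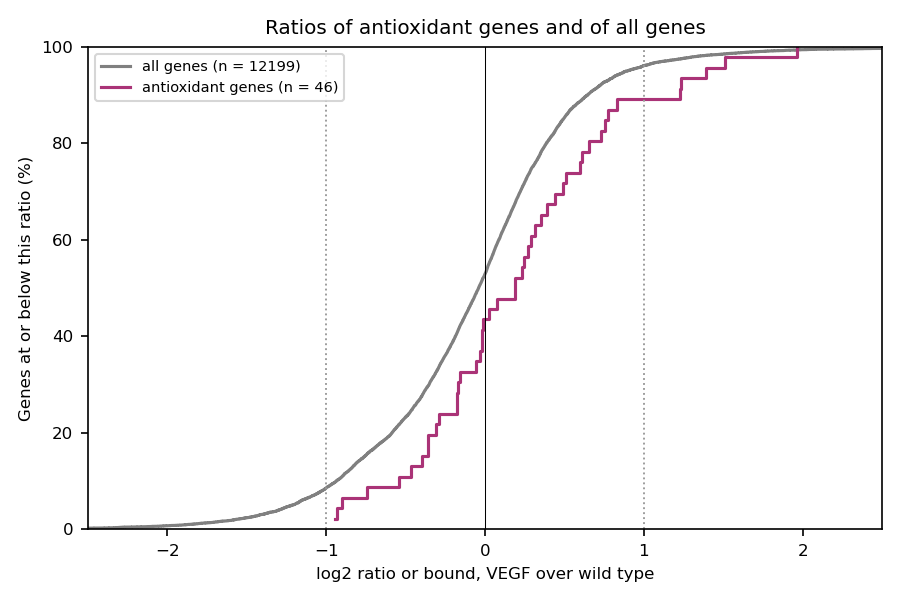
Cumulative share of genes (y axis, percent) at or below a log2 ratio or bound (x axis) for the 46 antioxidant genes and for all 12199 genes; dotted lines mark 2-fold, and the most extreme of all genes lie outside the axis. The curve of the antioxidant genes begins at -0.95, so none of them passes 2-fold on the lower side.

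Enzymes that supply reduced glutathione were nearly equal on both arrays. Gclc, the catalytic subunit of the rate-limiting glutamate-cysteine ligase, had a signal of 380 in wild type and 447 on the array labelled VEGF (log2 ratio 0.24, its other probe set 0.41). Its modifier subunit gene Gclm had 3266 and 3225 (-0.02). Gss, which encodes glutathione synthetase, stood at 159.9 and 141 (-0.18), but its other probe set gave 0.43. Gsr, which encodes the reductase that restores glutathione with NADPH, had 383 and 343 (-0.16), with 0.23 from its other probe set. The 4 genes thus lay between -0.18 and 0.24, and in 2 of them the probe sets differed in sign.

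Glutathione transferases differed by class, although being higher was not particular to the alpha class. The alpha class, whose enzymes conjugate lipid aldehydes and diol epoxides, was higher on the array labelled VEGF in 3 of 3 measured genes. The mu class was lower in 6 of 6, although Gstm4 turned above 0 under some scalings. Of all 12199 genes with a ratio or bound, 5748 (47.1%) were above 0 and 6451 below it. Gsta4, which handles the lipid peroxidation product 4-hydroxynonenal, had a signal of 3843 in wild type and 6569 on the array labelled VEGF, a 1.71-fold difference (log2 ratio 0.77). Gsta2 had 163 and 382 and was 2.34-fold higher, although its probe set may also read the closely similar Gsta1. Gsta3 was at 13.0, below background, in wild type and at 77.5 on the other array, at least 3.91-fold higher. The second Gsta3 probe set gave nearly equal signals (22.1 and 24.3), so the gene's value rests on 1 of 2 probe sets. Gsta2 and Gsta4 kept a ratio above 0 in each of the 11 other processing settings. Gsta3 did so where it was measured, but wherever it is a bound it could only be above 0. Differentiated keratinocyte markers were higher on the same array: 6 of 10 were at least 2-fold higher, and their summed signal was 14065 against 11540.3 in wild type. Their part in the alpha class ratios was not tested.

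The mu class lies in 1 cluster of 7 neighbouring genes in the RefSeq gene table, and 6 of the 7 were above background. Gstm1 had 343 in wild type and 178 on the array labelled VEGF (log2 ratio -0.95), and its 3 further probe sets gave between -1.89 and -0.75. Gstm2 had 158 and 82.6 (-0.93), and Gstm7 had 58.1 and 31.2 (-0.90, second probe set -1.49). Gstm5 stood at 477 and 285 (-0.74) and Gstm3 at 77.6 and 53.4 (-0.54). Gstm4 was nearly equal on both arrays, with 76.5 and 75.4 (-0.02), a ratio that turned above 0 after quantile (0.06) or loess (0.08) normalization, with centred ratios (0.02) and with an offset of 50, plain (0.05) or after scaling (0.23). The other 5 stayed below 0, but the offsets reduced their differences. After scaling, Gstm7 was at -0.25, Gstm2 at -0.39 and Gstm5 at -0.32, and the class median moved from -0.82 to -0.32 with the plain offset and -0.25 with the scaled one. All 10 mu class probe sets with a ratio were below 0, and 3 of them were at least 2-fold lower. The mu genes are similar in sequence, so probe sets may read more than 1 of them and the 6 values are not independent. Among the 5 protein-coding genes on each side of the cluster, 6 had a ratio, 3 above and 3 below 0, between -0.75 and 0.26. Hair shaft and root sheath markers (5 of 8 at least 2-fold lower, summed signal 417 in wild type and 172 on the array labelled VEGF), markers of sebocytes (3 of 7 lower, 2193 and 1769.8) and markers of melanocytes (2 of 6 lower, 391 and 188) were lower on the same array as the mu class. Within the sebocyte list Fasn went the other way, with 365 in wild type and 684 on the array labelled VEGF (log2 ratio 0.90). The part of these cell types in the mu class ratios was not tested.

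**Figure D3:**
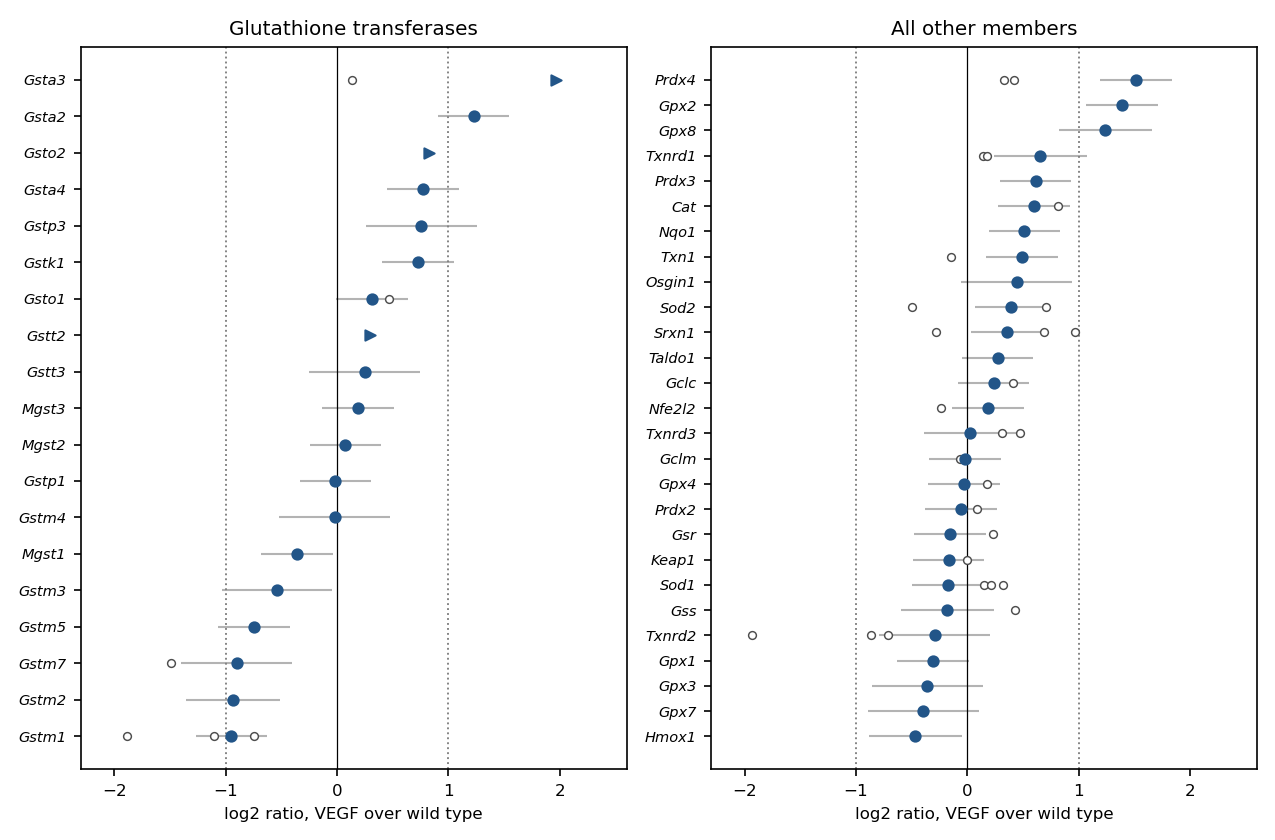
Log2 ratio of the array labelled VEGF over wild type for the 46 members with a ratio or bound, transferases on the left and all other members on the right. Filled points are the chosen probe set with the SD between probe sets of one gene at that signal as a bar, triangles are bounds without a bar, open circles are further probe sets, and dotted lines mark 2-fold; Gstm genes sit in the lower part of the left panel, with Gstm4 at 0 and above it under some scalings, and Gsta genes in its upper part.

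Most of the remaining transferases with a ratio or bound were above 0, while Gstp1 and Mgst1 were below it. Gstp3 and Gstk1 came close to the log2 ratio of Gsta4 (0.77). Gsto1, of the omega class that reduces dehydroascorbate, had 7003 in wild type and 8709 on the array labelled VEGF (log2 ratio 0.31), and Gsto2 was above background only on the latter, at least 1.78-fold higher and past 2-fold after quantile or loess normalization. Gstp1, the pi class enzyme long linked to skin tumour susceptibility in mice, was nearly equal (3883 and 3845), while Gstp3 had 40.3 and 68.1 (0.76). In the theta class Gstt3 had 53.8 and 63.8, Gstt2 was at least 1.22-fold higher, and Gstt1 and Gstt4 got no ratio. Gstk1, the kappa class enzyme of mitochondria and peroxisomes, stood at 189 and 314 (0.73). The membrane-bound Mgst1 had 2243 and 1751 (-0.36). Its second probe set was below background on both arrays, and the median over both turned the ratio to 1.05. Mgst2 had 914 and 964 (0.08), and Mgst3 had 571 and 650.4 (0.19). Gstp1, Mgst2 and Mgst3 were thus within the SD between probe sets.

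Promoters of members were searched for the core of the antioxidant response element, TGACNNNGC on either strand, where NRF2 binds with small MAF proteins. The RefSeq promoter table (GRCm38.p6, from 250 bases before to 50 after a gene's start) held 59 promoters of 46 members. It held none for Gclc, Gsr, Gsta4, Gstt2, Hmox1 and Sod3. The core was present in 9 of the 46 members (19.6%), against 16.7% of the 9821 genes in that table with a ratio or bound on the arrays and 13.99% of all 27025 genes. The 9 sites are shown because they name the members with this sequence near the start; capitals mark the core, read on the strand that matches it, with 8 bases on each side.
Gclm: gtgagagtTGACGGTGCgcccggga
Gsta3: ctcaggcaTGACATTGCatttttct
Gstm5: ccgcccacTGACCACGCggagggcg
Gstm7: tgaagaccTGACAAAGCgaagccaa
Mgst1: ccgcctccTGACCGTGCcaagcccc
Nfe2l2: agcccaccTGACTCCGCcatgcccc
Sod1: cctgagtcTGACCACGCccaccttg
Srxn1: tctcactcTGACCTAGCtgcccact
Txnrd1: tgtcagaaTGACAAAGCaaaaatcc
None of the 9 cores overlapped an AP-1 site, TGANTCA on either strand. Only these letters were searched. The sequence TGAGTCAGC, which holds an AP-1 site, does not match the core letters and was not counted. It was present in promoters of Gstp1 and Srxn1 and, on the other strand, of Osgin1, so the lack of overlap covers only the core as written. Counted by gene like the core, the AP-1 site was present in 10.9% of the 46 members. The share was 6.69% of the genes in the promoter table with a ratio or bound and 8.97% of all genes there.

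The ratios of members with and without the core overlapped. The 9 genes with it had a median log2 ratio of -0.02, with values from -0.90 for Gstm7 to a bound of 1.97 for Gsta3. For 32 members without the core that had a ratio or bound, the median was 0.22. Without the core means only that these letters were absent from the 300 bases searched. Sequence further from the start was not searched. Nqo1, often used as an NRF2 readout, and Gpx2, a known NRF2 target, are among the members without it. The full promoters with the core of Gsta3, an alpha gene that was higher, and Gstm7, a mu gene that was lower, are given with the core in capitals, 5′ to 3′ on the gene's strand. That of Gsta3 is chr1:21240335-21240634 (plus strand), with the core 121 bases before the start. That of Gstm7 is chr3:107931565-107931864 (minus strand), with the core 129 bases before it, and a second promoter of Gstm7 in the table, not shown, held 0 cores.
Gsta3: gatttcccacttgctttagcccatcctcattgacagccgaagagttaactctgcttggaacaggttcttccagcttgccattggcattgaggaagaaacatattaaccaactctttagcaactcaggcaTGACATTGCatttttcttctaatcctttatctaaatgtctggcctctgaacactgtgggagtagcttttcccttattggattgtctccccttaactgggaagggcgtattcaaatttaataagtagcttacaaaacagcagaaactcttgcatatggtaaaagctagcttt
Gstm7: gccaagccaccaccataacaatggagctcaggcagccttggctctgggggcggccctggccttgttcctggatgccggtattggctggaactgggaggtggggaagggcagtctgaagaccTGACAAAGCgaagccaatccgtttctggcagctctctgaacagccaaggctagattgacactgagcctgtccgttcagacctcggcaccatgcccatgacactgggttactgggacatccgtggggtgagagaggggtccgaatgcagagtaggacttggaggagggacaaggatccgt
A match of these letters does not show that a factor binds there.

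Glutathione peroxidases, which reduce peroxides with glutathione, included 2 of the 5 members at least 2-fold higher. Gpx2, the epithelial peroxidase and a known NRF2 target, had a signal of 1090.0 in wild type and 2858 on the array labelled VEGF, a 2.62-fold difference (log2 ratio 1.39). Gpx8, an enzyme of the endoplasmic reticulum membrane without selenocysteine, had 135 and 318 and was 2.36-fold higher (1.24). Each was measured by a single probe set and stayed at least 2-fold higher in all 11 other settings, between 1.35 and 1.74 for Gpx2 and between 1.01 and 1.34 for Gpx8. Fibroblast markers were higher on the same array as Gpx8, with a summed signal of 2725 against 1204, and 2 of 8 markers, Col1a2 (2.91-fold) and Col3a1 (2.52-fold), at least 2-fold higher. Pdgfra, which encodes CD140a, was at 9.86 in wild type, below background, and at 34.7 on the other array. Dcn and Dpt, further markers of the list, had log2 ratios of -0.34 and -0.01, and the part of fibroblast RNA in the Gpx8 ratio was not tested.

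The other peroxidases did not follow them. Gpx1, the cytosolic selenoenzyme, had 4995 in wild type and 4036 on the array labelled VEGF (log2 ratio -0.31). Gpx4, which reduces lipid hydroperoxides in membranes and restrains ferroptosis, was nearly equal, with 1296 and 1268 (-0.03, other probe set 0.17). The secreted Gpx3 had 59.4 and 46.3 (-0.36), and Gpx7, which resembles Gpx8 in lacking selenocysteine and residing in the endoplasmic reticulum, had 22.2 and 16.9 (-0.40), close to background. These 4 lay below 0 but within the SD between probe sets, and Gpx5 and Gpx6, best known from epididymis and olfactory tissue, were below background on both arrays. Gpx4 has near-identical pseudogenes, so its value is uncertain.

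In the thioredoxin and peroxiredoxin system 6 of 8 genes had a ratio above 0, against 47.1% of all genes with a ratio or bound. The class median was 0.42, which was 0.24 with the median over probe sets and 0.74 with the offset of 50 after scaling. Prdx1 and Prdx6 are not among the 8. Probe sets shared between a peroxiredoxin gene and a predicted gene, described at the end, gave between -0.50 and 0.05 and were not counted. Prdx4, the peroxiredoxin of the endoplasmic reticulum that couples peroxide removal to protein folding, had a signal of 347 in wild type and 989 on the array labelled VEGF, a 2.85-fold difference (log2 ratio 1.51). Its 2 further probe sets with a ratio gave only 0.33 and 0.42, and the median over all its probe sets gave 0.37, so its place among the genes 2-fold apart rests on 1 probe set. Prdx3, of mitochondria, had 216 and 330.4 (0.61), and Prdx2, of the cytosol, 2072 and 1993 (-0.06). Txn1, which encodes thioredoxin itself, had 5762 and 8083 (0.49), but its dimmer probe set gave -0.14.

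The reductases that recharge thioredoxin differed in direction. Txnrd1, the cytosolic enzyme and an NRF2 target, had 159.99 in wild type and 252 on the array labelled VEGF (log2 ratio 0.65), with 0.14 and 0.18 from its other probe sets. Txnrd2, the mitochondrial enzyme, had 29.0 and 23.7 (-0.29), and its 3 other probe sets gave between -1.93 and -0.71, 2 of them bounds because the array labelled VEGF was below background. Txnrd3 was nearly equal (206 and 210.2). Srxn1, which encodes the sulfiredoxin that repairs overoxidised peroxiredoxins, stood at 189 and 242 (0.35), with others between -0.28 and 0.96. None of the 4 was 2-fold apart by its chosen probe set, and Txnrd2 was below 0 by all 4 of its probe sets near background.

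Enzymes against superoxide and hydrogen peroxide were modestly higher or equal. Cat, which encodes catalase of peroxisomes, had 787 in wild type and 1189 on the array labelled VEGF (log2 ratio 0.60), and its second probe set gave 0.81. Sod2, the manganese enzyme of mitochondria, had 586 and 767 (0.39), with its other probe sets at -0.50 and 0.71. Sod1, the copper-zinc enzyme of the cytosol, stood at 1385 and 1226 (-0.18), while 3 other probe sets gave between 0.15 and 0.32. Only for Cat did the probe sets with a ratio share a sign in this class, and the extracellular Sod3 was below background on both arrays.

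The NRF2 switch itself was nearly equal, and its classical responders were split. Nfe2l2 had a signal of 1959.6 in wild type and 2233 on the array labelled VEGF (log2 ratio 0.19, second probe set -0.24), and Keap1 350 and 311 (-0.17, second probe set 0.00). Nqo1, the quinone reductase often used as an NRF2 readout, had 239 and 341 (0.51). Hmox1, the haem oxygenase gene induced by NRF2 and by haem, had 189 and 137 (-0.47), and Osgin1 55.2 and 75.01 (0.44). Nqo1 and Hmox1, each read by 1 probe set, kept their opposite signs in all 11 other settings. As deposited, none of Nqo1, Hmox1 and Osgin1 reached 2-fold. Taldo1, which encodes transaldolase of the pentose phosphate pathway that yields NADPH, stood at 1032 and 1245 (0.27).

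Further redox genes outside the members were taken from 5 lists of 82 measured genes, 79 of them with a ratio or bound. Of the 79, 3 (3.80%) had a signal at least 2-fold higher on the array labelled VEGF, and 5 (6.33%) were lower by that much, with a median log2 ratio of 0.04. These shares are near or below the 3.87% and 8.53% of all genes, although the 8.53% depended on processing. The counts of 1 or 2 genes in the lists that follow single out no list. In the list of other NRF2 targets, 2 of 23 were at least 2-fold higher, none was lower, 16 were above 0 and the median was 0.31. As deposited, 69.6% of this list and 47.1% of all genes were above 0. With the offset of 50 after scaling, 23 of 24 were above 0 and the median was 0.66. That scaling first raised every signal on the array labelled VEGF, to bring its median from 17.3 to 22.6. Both values carry this shift. Slc7a11, the cystine transporter that feeds glutathione synthesis, led the list with 30.2 in wild type and 226 on the array labelled VEGF (7.49-fold, other probe set 1.75 on the log2 scale). Ptgr1, a reductase of reactive aldehydes and prostaglandins, followed with 888 and 2447 (2.76-fold). Ephx1, Pgd, Abcc4 and Sqstm1 were just under 2-fold, with log2 ratios between 0.96 and 0.99, although the second Sqstm1 probe set gave 0.01 and 3 further Pgd probe sets gave between 0.83 and 1.48. Tkt, which encodes transketolase and had the highest signal of the list, had 7355 and 6545 (-0.17).

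The other lists held the lower genes. Among NRF2 partners and regulators, 1 of 11 was at least 2-fold lower, Bach2, a repressor that competes at antioxidant response elements, with 49.8 and 19.4, and 0 were higher. Its relative Bach1 had 829 and 503 (log2 ratio -0.72), and Cul3, the ubiquitin ligase scaffold that works with KEAP1, had 614 and 701 (0.19). In the thiol redox list 1 of 19 was lower, Sesn1, which encodes the p53-induced sestrin, with 633 and 178 (3.56-fold lower, other probe sets -1.44 and -1.33). In the selenoprotein list 1 of 13 was lower, Selenop, which encodes the secreted selenium carrier, with 849 and 222 (3.83-fold lower). For glutathione turnover, 1 of 13 was higher, Chac1, a glutathione-degrading enzyme gene (24.5 and 49.1, 2.01-fold), and 2 were lower, Oplah (2.06-fold) and Ggt5 (2.03-fold). The genes of highest signal in these 3 lists were under 2-fold, at -0.42 for Txndc17, 0.36 for Selenow and -0.90 for Glo1, the glyoxalase gene. Bach2, Chac1, Oplah and Ggt5 were under 2-fold in some settings, with Chac1 down to 0.49 and Bach2, Oplah and Ggt5 up to -0.40, -0.44 and -0.27.

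**Figure D4:**
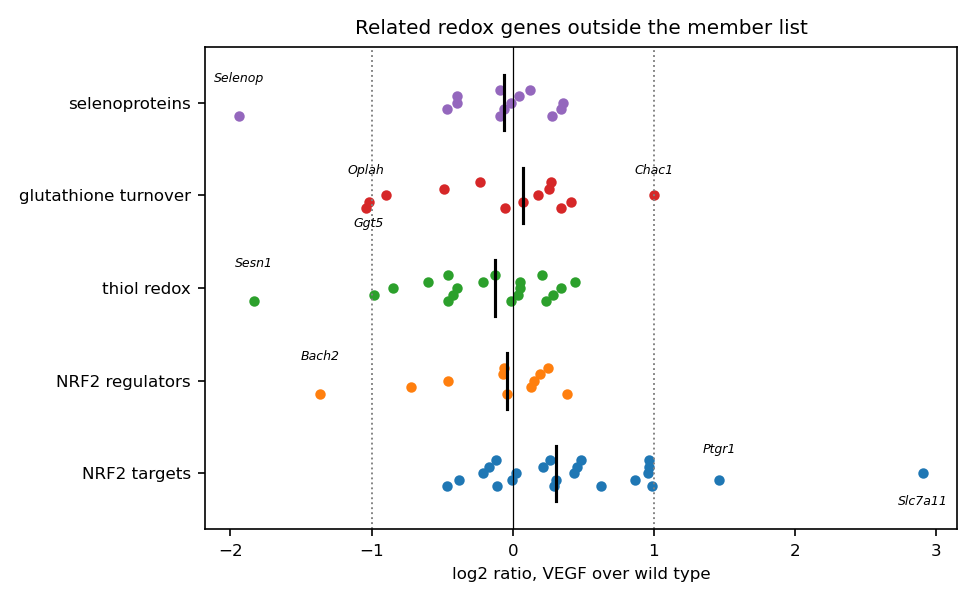
Log2 ratio of the array labelled VEGF over wild type (x axis) for the 79 related genes outside the members, by list; each point is a gene, the black bar is the list median, genes at least 2-fold apart are named and dotted lines mark 2-fold. The list of NRF2 targets has the highest median (0.31), with Slc7a11 far to the right.

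**Figure D5:**
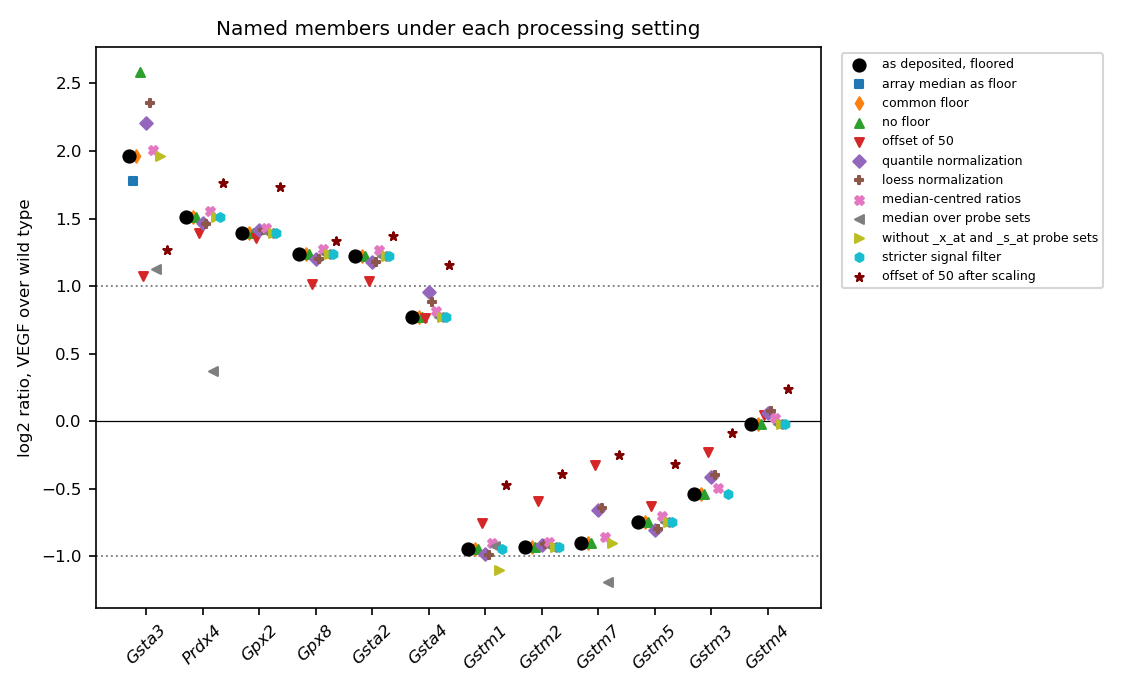
Log2 ratio (y axis) of 12 members under the main setting (black) and 11 other processing settings; dotted lines mark 2-fold. Gpx2, Gpx8 and Gsta2 stay above 2-fold throughout, Prdx4 drops to 0.37 with the median over probe sets, and of the 6 mu class genes Gstm4 alone crosses 0.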

How the data were processed

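Affymetrix Mouse Genome 430 2.0 arrays were hybridised with labelled RNA made from 100 ng of total RNA per sample, 1 array per genotype. The deposited values are log2 signals that the authors made with MAS5, per the submitters' processing notes; the sources used here give neither its version nor its scaling target. The table held 45101 probe sets, 34958 with 1 gene in the platform annotation, 932 with several and 9211 unnamed here. A gene took its probe set of highest mean log2 signal, signals were floored at the background described in the report, and genes at least 2-fold apart were counted. There were no replicates, hence no test, no p-value and no paired fit, and array number limits the precision. All members' gene IDs were found in the RefSeq gene table (GRCm38.p6), with 0 symbols changed.

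Members and lists were chosen with earlier results of these data known. Values in full are given for members at least 2-fold apart, for the brightest and most different member of each role, and for a fixed set of redox genes; of the other lists, the genes 2-fold apart and the brightest, with genes just under 2-fold and Bach1 chosen after their values were seen. Remaining members are given so that each is accounted for. The 11 other settings changed the floor, offset, normalization, probe sets or signal filter. In the offset setting, medians were matched by adding a constant; matching by scaling was added after seeing the data. Python 3.11.15, numpy 2.4.6, pandas 2.3.3 and statsmodels 0.14.6 were used, and the functions were tested on simulated data.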

Additional observations from a re-analysis of the deposited data

Results flagged for a closer look

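A probe set outside the comparisons, because the annotation assigns it to 3 genes with alpha class transferases among them, had a signal of 315 in wild type and 1698 on the array labelled VEGF, 5.39-fold higher. Which of the genes it reads is not known here.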

How the results depend on the processing

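Of 347 values of 32 named members under 11 other settings, 315 moved by less than the SD between probe sets and 32 moved by more. Of these values, 0 changed sign from a difference of at least 2-fold. In every setting where they were measured, 22 members kept the sign of their ratio. Among the 22 is Gsta3, which could only be above 0 wherever it is a bound. The count of members at least 2-fold higher stayed between 4 and 6 except with no floor, where it was 8 and the count at least 2-fold lower was 1 (Gpx5, below background on both arrays). With the median over probe sets Mgst1 was among the higher members in place of Prdx4, and 2 members were at least 2-fold lower (Gstm7 and Txnrd2), and without probe sets ending in _x_at or _s_at 1 was (Gstm1). The members' median was between 0.14 and 0.37, with the lowest value after quantile normalization. It was 0.25 without those probe sets and 0.37 with the offset of 50 after scaling. That scaling raised every signal on the array labelled VEGF. The setting moved the median of all genes by 0.15 but bright genes further, such as Gclm from -0.02 to 0.37. The plain offset moved the median of all genes by 0.12. Other redox genes at least 2-fold higher numbered 5 with no floor, 7 with centred ratios and 6 with the scaled offset. Those at least 2-fold lower numbered 2 with either offset and 3 after quantile or loess normalization, with centred ratios and with the stricter filter (both arrays above background, mean signal at least 4 times background). The causes of the other shifts were not tested. No paired analysis was possible because each group has 1 array. Members near background, such as Gsta3, Gpx7 and Txnrd2, are limited by signal.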

Other observations

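A peroxiredoxin gene and a predicted gene share 5 probe sets, which had log2 ratios between -0.50 and 0.05 on the array labelled VEGF over wild type, with signals between 1014 and 7813 in wild type. They entered no count above.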
